A study of Mus musculus with 32 samples.

Results

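Gene expression after the insulin-only step was compared with gene expression at the end of the hormone cocktail in control 3T3-L1 cells, an established line of mouse fibroblast-like preadipocytes that can be driven to form fat cells. The members were the 4 scramble control (shCtrl) libraries of day 7 and the 4 of day 3, chosen by sample title, 8 of the 32 libraries in the series. The whole series also held control libraries of days 0 and 11, and libraries of cells in which Zbtb9 was knocked down with 2 hairpins (shRNA #1 and shRNA #2). All cells, controls included, carried a short hairpin construct. They were grown in DMEM with 10% FBS, and at day 0, which was 2 days after confluence, they received 167 nM insulin, 0.5 mM IBMX and 1 µM dexamethasone. Insulin alone, again at 167 nM, followed from day 3, and medium without additions from day 7. The labels name both days premature adipocyte, number the libraries as biological replicates, and do not say whether day 3 RNA was taken before or after the medium change. Where separate cultures are not described, p-values measure only the spread between these libraries.

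Adipogenesis in this line is started by dexamethasone, a glucocorticoid, and by IBMX, which blocks phosphodiesterases and so raises cAMP. These induce C/EBPβ and C/EBPδ, which switch on PPARγ and C/EBPα, and that pair drives the genes of lipid storage and insulin-dependent glucose uptake. The comparison of day 7 with day 3 covers the removal of dexamethasone and IBMX and the passage from the early regulators to the lipid-storing state.

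Promoters are shown for 5 genes of a pair of groups with a known promoter element whose called members all moved 1 way: interferon response genes, which rose, and amino acid stress genes, which fell. Each sequence is the 250 bases before the transcription start in RefSeq (build GRCm38.p6), 5′ to 3′ on the gene's strand, with matches to a motif in capitals. In Ifit1 (chr19:34640639-34640888, plus strand), Ifit3 (chr19:34583279-34583528, plus strand) and Isg15 (chr4:156200819-156201068, minus strand) the capitals mark the core of the interferon-stimulated response element, which reads GAAA, any 2 bases and GAAA, on either strand. In Asns (chr6:7693210-7693459, minus strand) and Slc7a11 (chr3:50443614-50443863, minus strand) they mark TGATGNAA on either strand, the core of the amino acid response element. Overlapping matches are joined into 1 run of capitals, as in Isg15.
Ifit1: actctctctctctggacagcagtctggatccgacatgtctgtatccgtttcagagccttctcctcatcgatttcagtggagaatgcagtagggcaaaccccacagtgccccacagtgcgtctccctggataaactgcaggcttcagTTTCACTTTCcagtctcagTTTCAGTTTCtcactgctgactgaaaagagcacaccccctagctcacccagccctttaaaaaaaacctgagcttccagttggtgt
Ifit3: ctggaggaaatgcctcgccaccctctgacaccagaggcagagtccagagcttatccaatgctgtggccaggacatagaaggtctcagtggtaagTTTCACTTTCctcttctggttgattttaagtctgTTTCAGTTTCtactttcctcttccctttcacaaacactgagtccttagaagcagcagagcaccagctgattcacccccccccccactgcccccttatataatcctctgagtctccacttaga
Isg15: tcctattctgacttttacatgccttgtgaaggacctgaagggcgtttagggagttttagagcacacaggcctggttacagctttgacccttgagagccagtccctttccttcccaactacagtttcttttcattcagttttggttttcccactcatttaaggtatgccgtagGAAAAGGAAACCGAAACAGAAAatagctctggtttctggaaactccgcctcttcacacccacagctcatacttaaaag
Asns: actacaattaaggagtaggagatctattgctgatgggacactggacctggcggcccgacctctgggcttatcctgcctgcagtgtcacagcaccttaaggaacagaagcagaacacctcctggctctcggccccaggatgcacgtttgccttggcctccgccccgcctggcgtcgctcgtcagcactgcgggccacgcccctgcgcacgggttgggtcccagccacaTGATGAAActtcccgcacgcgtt
Slc7a11: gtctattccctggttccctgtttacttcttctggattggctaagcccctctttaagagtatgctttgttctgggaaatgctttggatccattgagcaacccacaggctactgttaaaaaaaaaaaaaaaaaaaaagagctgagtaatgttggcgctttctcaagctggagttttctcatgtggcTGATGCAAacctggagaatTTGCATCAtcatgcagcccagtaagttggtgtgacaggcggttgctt
The interferon core was in the windows of 15 of the 33 interferon response genes that matched a RefSeq promoter, of 45 listed (45.5%), in 2.98% of all 32851 promoters and in 3.19% of the 10029 tested genes with a promoter entry. The amino acid core was in 7 of 21 matched genes, of 22 listed (33.3%): Asns, Chac1, Fgf21, Nupr1, Pycr1, Slc7a11 and Vldlr. It was in 3.45% of all promoters and in 2.38% of the tested genes with a promoter entry. The cAMP response element TGACGTCA was in 3 of 23 matched cAMP-responsive genes, of 32 listed (13.0%): Areg, Dio2 and Dusp1. It was in 1.55% of all promoters and in 3.00% of the tested genes with a promoter entry. The E2F core TTTCCCGC was in 2 of 27 matched replication genes, of 33 listed (7.41%): Cdc6 and Mcm7. It was in 0.895% of all promoters and in 2.01% of the tested genes with a promoter entry. The list shares count matched members whether or not they were tested, so they cannot be set directly against the shares of tested genes. Not tested were 4 of the 32 cAMP-responsive genes, 1 of the 22 amino acid genes and 1 of the 45 interferon genes. Areg, Dio2 and Fgf21, counted above as holding a motif, had few reads on days 3 and 7. Both strands were searched for each motif, and a match describes letters in the window and not a bound site.

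Most genes tested differed between the days, the majority by small amounts and fewer by large ones. Of 13421 genes tested with limma, 9964 (74.2%) were called at an adjusted p under 0.05. Of these, 5052 (37.6% of those tested) were higher at day 7 and 4912 (36.6%) lower. A change of at least 1 on the log2 scale was reached by 920 genes that rose (6.85%) and 400 that fell (2.98%), together 1320. With less shrunken values that total was 2191 (log2 of rebuilt reads plus 1) or 2225 (voom on rebuilt reads). At least 2 was reached by 208 that rose and 48 that fell. The median change of all genes tested was 0.0073. Counts of list members below are to be read against these shares. Log2 changes are those of the deposited values, which are drawn towards each gene's mean and understate the change of genes with few reads. Every ranking by size below (largest, led by, fell the most) is on that scale, and the order by ratio of reads can differ. Per-library values are whole reads rebuilt from those values and scaled for depth (normalized reads). The 8 libraries held from 22280363 to 27179452 rebuilt reads. Libraries of 1 day correlated at 0.997 or more across genes and libraries of different days at 0.970 or less, so that none stood apart from its day. In bulk RNA, fewer cells expressing a gene and less of its RNA per cell cannot be told apart.

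Secreted products of mature fat cells had among the largest rises. Adiponectin, the adipokine encoded by Adipoq (ENSMUSG00000022878, chr16:23146536-23158028, build GRCm38), was at 10.5, 10.6, 9.42 and 5.32 normalized reads in the 4 day 3 libraries and at 1825, 1606, 1530.4 and 1873 at day 7. The groups lay far apart, with a log2 change of 5.72 (SE 0.092, limma adjusted p = 3.1e-32) and a ratio of mean normalized reads of 191. Adipsin (Cfd, chr10:79890853-79892655), a serine protease of the complement pathway secreted by fat cells, went from 44.2, 32.8, 50.2 and 49.96 to 1773, 1384, 1454 and 1539 normalized reads. Every day 7 library was far above every day 3 library, and the log2 change was 4.53 (SE 0.099, adjusted p = 2.2e-28). Resistin (Retn), another secreted protein of mouse fat cells, rose by 2.91. Of the 9 adipocyte markers tested, 9 rose, with a median change of 2.86. Leptin (Lep), the tenth, did not pass the filter on low values, with a mean of 0.526 normalized reads at day 3 and 1.52 at day 7. Of 16 adipokine genes tested, 10 rose and 4 fell, with a median of 0.35. The falls were led by Il6 (from 285 to 19.7 normalized reads on average), the lipase inhibitor Angptl4 (−1.17) and Vegfa (−0.80).

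**Figure D1:**
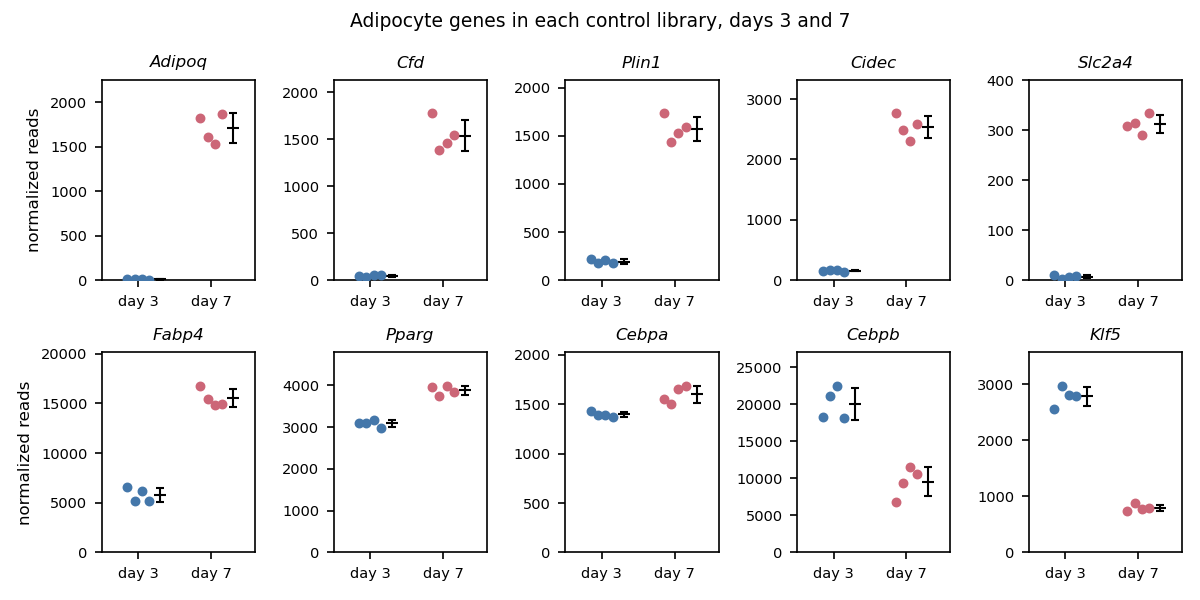
Normalized reads (vertical axis, linear from 0) of 10 adipocyte genes in each of the 4 control libraries of day 3 (blue points) and day 7 (red points), with the mean and SD beside them in black. Adipoq, Cfd, Plin1, Cidec and Slc2a4 were close to the axis at day 3, Pparg and Cebpa differed little between the days, and Cebpb and Klf5 were higher at day 3.

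The central transcription factors of the program rose slightly, and more adipogenic factors fell than rose. Pparg, the nuclear receptor that directs fat cell formation (chr6:115360951-115490399), had 3101, 3102, 3171 and 2981 normalized reads at day 3 and 3959.8, 3751, 3985 and 3851 at day 7. The days did not overlap, yet the log2 change was 0.32 (SE 0.043, adjusted p = 3.6e-08). The libraries of Cebpa, its partner, did not overlap either, and the change was 0.19 (SE 0.072, adjusted p = 0.0226), from 1434, 1389, 1389.8 and 1373 to 1551, 1504, 1651 and 1688. That call was lost without day 3 replicate 4 (0.18, adjusted p = 0.0506), day 7 replicate 3 (0.17, adjusted p = 0.0599) or day 7 replicate 4 (0.16, adjusted p = 0.072). It was also lost without the trend and robust options of limma (adjusted p = 0.0554). The early factors parted: Cebpb fell by 1.05 (SE 0.169, adjusted p = 7.9e-05) while Cebpd rose by 0.54. Cebpb was at 18241, 21141, 22503 and 18079 normalized reads on day 3 and 6843, 9392, 11494 and 10519.6 on day 7. Of 24 adipogenic factors tested, 5 rose, 13 fell and 6 were not called, with a median of −0.18. The largest rise was in Klf15, a glucocorticoid-induced Krüppel-like factor, from 29.5, 29.6, 34.5 and 29.8 to 395, 324, 315 and 360.3, a change of 2.89. Nr1h3, which encodes the oxysterol receptor LXRα, rose by 1.35. The 3 largest falls were in Klf5 (−1.72), an early Krüppel-like factor, Cebpb and Nfia (−1.03). Per kilobase of exon, Cebpb remained the most abundant of the 3 C/EBP transcripts at day 7, with 6358 normalized reads per kilobase against 1514 for Cebpd and 606 for Cebpa.

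Most genes of the lipid droplet surface rose, and so did most on a mixed list of lipolysis genes and their inhibitors. More genes that make fatty acids fell than rose. Plin1, the perilipin that guards the droplet and docks lipases, was at 217, 175, 208 and 174 normalized reads on day 3 and at 1733, 1440.2, 1529 and 1592 on day 7, a change of 2.86. Cidec, which fuses droplets, rose by 3.79 (SE 0.087, adjusted p = 2.5e-28), from 159.9, 165, 165 and 144 to 2762, 2493, 2310.2 and 2587. All 4 libraries of day 7 were above the 4 of day 3 for both. Plin2, the droplet coat protein of most cell types, changed by 0.33. Of 12 droplet genes tested, 9 rose, with a median of 0.81, and 1 fell: Fitm2, an endoplasmic reticulum protein needed for droplet budding (−1.12). Of 14 lipolysis genes tested, 12 rose and 2 fell, with a median of 1.10 (2.02 with voom on the rebuilt reads). The list mixes lipases with genes that restrain lipolysis, so the count is no measure of lipolysis. Those that fell were the lipase gene Pnpla2 and Abhd5, which encodes its activator. Rises on the deposited log2 scale included G0s2, an inhibitor of the first lipase (1.94), Mgll, the monoglyceride lipase (1.90), and Npr3, the clearance receptor for natriuretic peptides (1.87). Their mean normalized reads went from 100.5 to 445, from 2.37 to 63.3 and from 30.1 to 174. The first lipase itself, Pnpla2, fell by 0.11, a call lost without day 3 replicate 4 (−0.10, adjusted p = 0.0513) or day 7 replicate 2 (−0.09, adjusted p = 0.057), and with equal totals (−0.06, adjusted p = 0.222). Its activator Abhd5 fell from 13129, 13225, 13534 and 13097 to 5402, 5246, 5236 and 5536 normalized reads, by 1.27. The hormone-sensitive lipase Lipe rose by 0.19. Summed over the lipolysis list, in which Abhd5 and Pnpla2 hold most reads, normalized reads ran from 26241 to 26724 at day 3 and from 21857 to 22929 at day 7, so the sum was lower at day 7 although most members rose.

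Fatty acid uptake and esterification were mixed. The fatty acid carrier Fabp4 rose by 1.39 (SE 0.096, adjusted p = 5.3e-09), from 6608, 5198, 6141 and 5161 to 16781, 15457, 14869 and 14919 normalized reads, and the transporter Cd36 by 0.94. Lipoprotein lipase (Lpl) rose by 0.28. Of 17 uptake and activation genes, 8 rose and 6 fell, with a median of 0.08. Among 15 triglyceride synthesis genes, 7 rose and 7 fell. The largest rise was in Gpd1, which supplies the glycerol backbone, from 40.0, 37.0, 27.2 and 46.8 to 841, 725, 716 and 806, a change of 3.75 (SE 0.158, adjusted p = 6.8e-15). Its relative Gpd1l fell by 0.82, and Gpat3, which adds the first acyl chain, by 1.27. Pck1, a glyceroneogenic enzyme, had no read in the 4 day 3 libraries and 19.7, 10.1, 16.5 and 15.01 normalized reads at day 7, at least 4.85-fold higher against a floor of 3 reads per library. In de novo lipogenesis 6 of 17 genes rose and 9 fell, with a median of −0.19. Fasn, the fatty acid synthase, fell from 8075, 8108, 7633 and 7976 to 4892, 5049.7, 4860.2 and 5589, by 0.62. Acaca, which makes its malonyl-CoA substrate, fell by 0.79 and Acly by 0.48. The desaturase Scd1 rose by 0.40. Thrsp, a nuclear protein tied to lipogenesis, had at most 2 reads in a day 3 library and reached 157, 113, 109.7 and 158 normalized reads at day 7.

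Nearly all glycolysis genes rose, and so did both main glucose transporters. Slc2a4 encodes GLUT4, the insulin-responsive glucose transporter (chr11:69942539-69948188). It had 9.47, 3.17, 6.28 and 8.504 normalized reads at day 3 and 309, 314, 290.3 and 334 at day 7, a log2 change of 3.76 (SE 0.118, adjusted p = 1.9e-24). Slc2a1, the basal transporter GLUT1, rose by 1.01, and at 2694 normalized reads per kilobase of exon it stood far above Slc2a4 at 89.7 on day 7. Sort1, which sorts GLUT4 vesicles, rose by 1.98. The insulin receptor substrate Irs2 fell by 0.96, and the 23 insulin signalling genes as a list split into 10 that rose, 8 that fell and 5 not called. In glycolysis 18 of 19 genes rose and 1 fell, with a median of 0.74. Hexokinase 1 (Hk1) went from 3020.2, 2925, 2879 and 3035 to 8118, 8418, 10082 and 8023 normalized reads, a change of 1.49. Gpi1, the next enzyme, rose by 1.27 and the lactate exporter Slc16a3 by 1.81. The one that fell was the other monocarboxylate carrier of the list, Slc16a1 (−0.73). Of the pyruvate dehydrogenase kinases, which close the entry of pyruvate into the mitochondrial cycle, Pdk1 rose by 1.34, Pdk2 by 1.33 and Pdk4 by 0.82. The pyruvate and TCA list as a whole had 10 of 25 higher, 7 lower and a median of 0.01.

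Most genes of fatty acid and branched-chain amino acid breakdown rose, and respiratory chain genes were divided. Of 30 genes of fatty acid oxidation and peroxisomes, 23 rose, none fell and 7 were not called, with a median of 0.37. Rises included those of the peroxisomal transporter Abcd2 (1.49) and the thioesterase Acot1 (1.06). Cpt1a, which admits fatty acids to mitochondria, rose by 0.42. Of 21 genes of branched-chain amino acid breakdown, 17 rose and 3 fell, with a median of 0.40. The 2 aminotransferases moved apart: the mitochondrial Bcat2 rose from 1854, 1662, 1816 and 1805 to 4303, 3946, 4108 and 4169 normalized reads (1.17), while the cytosolic Bcat1 fell from 3689, 3757, 3604 and 3354 to 1246, 1092, 1360.5 and 1442 (−1.43). Aldh6a1, of valine breakdown, rose by 1.36. Of 47 nuclear-encoded respiratory subunits, 17 rose, 12 fell and 18 were not called, and the median was 0.05. Cytochrome c (Cycs) fell the most, by 1.38, from 4222, 3879, 4165 and 3897 to 1524, 1356, 1430.4 and 1680.1. Transcripts of the mitochondrial genome took 1.28% to 1.52% of reads at day 3 and 0.836% to 0.908% at day 7; the part of RNA quality in this was not tested. Of 7 thermogenic genes tested, 4 rose and 2 fell; the mitochondrial carrier Ucp2 fell by 1.33.

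Most cAMP-responsive genes fell by day 7, while glucocorticoid-induced genes were divided between rises and falls. Nr4a1, an orphan nuclear receptor and immediate early gene of cAMP signalling (chr15:101254269-101274795), showed the largest fall of all genes tested on the deposited log2 scale. It had 17638, 16983, 18070.1 and 17307 normalized reads at day 3 and 395, 419, 413 and 359 at day 7, a change of −5.26 (SE 0.055, limma adjusted p = 5.7e-38). Its day 0 mean was 696. Pde4b, a phosphodiesterase that degrades cAMP (chr4:102087543-102607259), fell from 9586, 9409.8, 9559 and 9735 to 462, 472, 521 and 485, by 4.14. Egr1, a zinc finger immediate early gene, fell by 2.82; Egr2 and Egr3, its relatives, fell by 3.63 and 3.65. Rgs2, which shortens G-protein signals, fell by 2.12 and the AP-1 subunit Junb by 1.39. Of 28 cAMP-responsive genes tested, 20 fell, 11 of them by at least 1, 3 rose and 5 were not called, with a median of −0.41. The 3 that rose were Cited2 (0.73), Rapgef3 (0.70) and Crtc2 (0.18), the last not called without day 7 replicate 3 (0.12, adjusted p = 0.0534). Nr4a2, a relative of Nr4a1, was not called, with a change of −0.19 (adjusted p = 0.109) and days that overlapped.

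Fkbp5, a co-chaperone of the glucocorticoid receptor that glucocorticoids induce strongly (chr17:28399094-28517527), was at 26495, 26155, 26173 and 26555 normalized reads on day 3 and at 25485, 25225, 26589 and 25408 on day 7. These overlapped, and the change of −0.04 (SE 0.036, adjusted p = 0.367), which was 0.0189 with libraries rescaled to equal totals, was not called. The day 0 mean was 1254 and the day 11 mean 3445. Tsc22d3, the glucocorticoid-induced leucine zipper, was at 13797 and 10662 on average on days 3 and 7 (−0.36), against 1185 at day 0 and 1856 at day 11. Zbtb16, a zinc finger repressor induced by glucocorticoids, rose by 0.63, from 1929 to 3041, with 10.2 at day 0 and 411 at day 11. The largest rises of the list were in the sulfotransferase Sult1a1 (3.46), Klf15 and Hif3a (2.84), a member of the hypoxia-inducible factor family. The largest falls were in the acute phase gene Saa3 (−2.80), the small GTPase gene Rasd1 (−1.61) and the phosphatase gene Dusp1 (−1.24), which is also on the cAMP list. Of 29 glucocorticoid-induced genes, 12 rose, 16 fell and 1 was not called, with a median of −0.12. The days 3 and 7 share their libraries with the comparisons to days 0 and 11, whose values stand here as levels only.

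**Figure D2:**
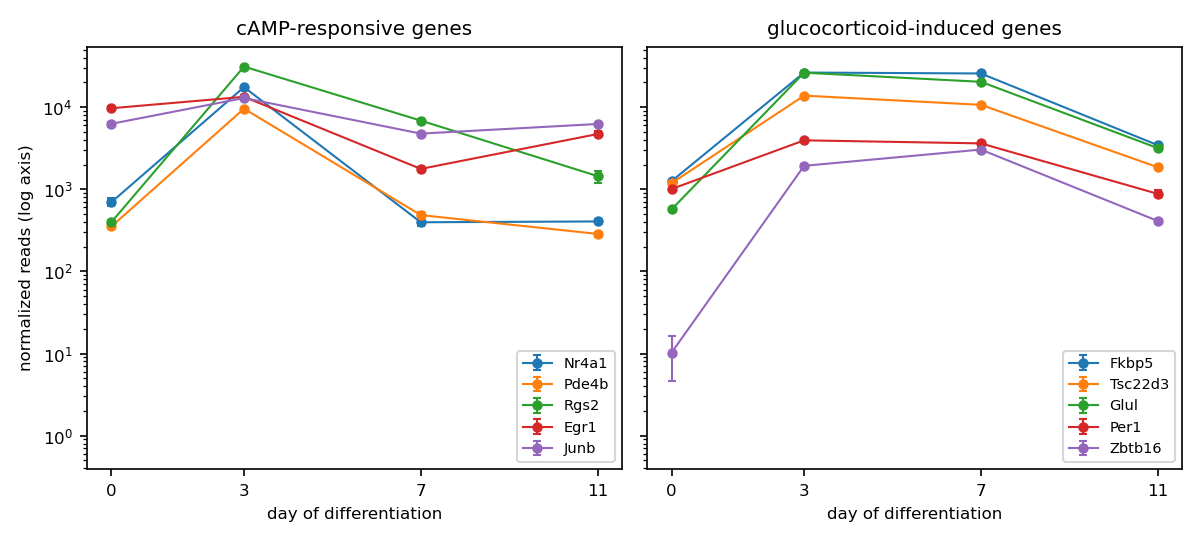
Normalized reads (log axis) of 5 cAMP-responsive genes (left) and 5 glucocorticoid-induced genes (right) in control cells on days 0, 3, 7 and 11; points are means of 4 libraries and bars run from the lowest to the highest. Nr4a1 and Pde4b dropped from 17499.8 and 9572 at day 3 to 396 and 485 at day 7, whereas Fkbp5 was at 26344 and 25677 and was low at day 11.

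Interferon-stimulated genes were low at day 3 and rose by day 7. All 44 interferon response genes tested rose, 42 of them by at least 1, with a median change of 3.31 (3.33 with Oas1g and Oas3, which had no day 3 read, set at the bound given by 3 reads per library). Oasl2, an antiviral protein of the oligoadenylate synthetase family (chr5:114896936-114912234), had the largest rise on the deposited log2 scale. It was at 24.2, 48.7, 40.8 and 39.3 normalized reads on day 3 and at 4619, 2938, 5053 and 3798 on day 7, a change of 5.85 (SE 0.180, limma adjusted p = 1.5e-12). Ifit3, which binds viral RNA complexes (chr19:34583531-34588731), went from 22.1, 21.2, 14.7 and 6.38 to 2396, 2182, 3402 and 2141. By ratio of mean normalized reads, Ifit3b (286, from a day 3 mean of 4.21) and Ifit3 (157) rose further than Oasl2 (107.2). Other members rose further still by ratio, from few reads. Oas1a and Oas2 went from 0.140 and 0.118 to 114 and 50.03 normalized reads per kilobase of exon. Ifit1, the partner of Ifit3 (chr19:34640871-34650009), went from 66.3, 77.2, 55.5 and 75.5 to 2101, 1921, 2637 and 2014, a change of 4.46. The groups lay apart for Oasl2, Ifit3 and Ifit1, and replicate 3 of day 7 held the highest value of these 3 genes and replicate 2 or 4 the lowest. Isg15, a ubiquitin-like modifier, rose by 3.69, and Irf7, a transcription factor that amplifies interferon production, by 5.02. Usp18, which removes Isg15 from proteins and dampens receptor signalling, rose by 4.99, Rtp4 by 4.74 and the GTPase Mx1 by 4.18. Oas3 had no read at day 3 and 204, 92.3, 275 and 210.2 normalized reads at day 7, at least 61.7-fold higher against 3 reads per library. The smallest rise was in the membrane protein Ifitm3 (0.50).

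Summed over the list, normalized reads ran from 19763 to 21039.7 in the day 3 libraries and from 72212 to 98146 in those of day 7. The sum was 85531 to 108548 at day 0 and 105342 to 122566 at day 11, so the ranges of days 0 and 7 overlapped. Day 0 means were 4753 for Oasl2, 3913 for Ifit3 and 1359.8 for Irf7. Of 17 interferon receptor, ligand and sensor genes tested, 10 rose and 5 fell, with a median of 0.22. Tlr3, a sensor of double-stranded RNA, rose by 1.82 and Irf1 by 1.15, while the DNA sensor Cgas fell by 1.08 and the kinase Jak2 by 0.94. Ifnb1, the interferon itself, had no read at day 3 and at most 9 in a day 7 library, and was not tested. Apol9a and Apol9b, interferon-inducible apolipoprotein L genes outside the list, rose by 5.11 and 5.02. Ifit3 and Ifit3b, and Apol9a and Apol9b, are near-identical pairs, so the division of reads within each pair is uncertain. Of 5 macrophage markers tested, 3 rose and 1 fell, with a median of 0.50. Mrc1 rose from a mean of 3.17 to 32.5 normalized reads, Lyz2 from 8.69 to 27.9 and Cd68 from 25.8 to 44.9. Cd14, which makes up most of the sum, fell from 649 to 427. Ptprc, Itgam and Cd163 had means under 1 on both days. The summed list ran from 663 to 743 normalized reads at day 3 and from 527 to 572 at day 7; the part of such cells in the interferon values was not tested.

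**Figure D3:**
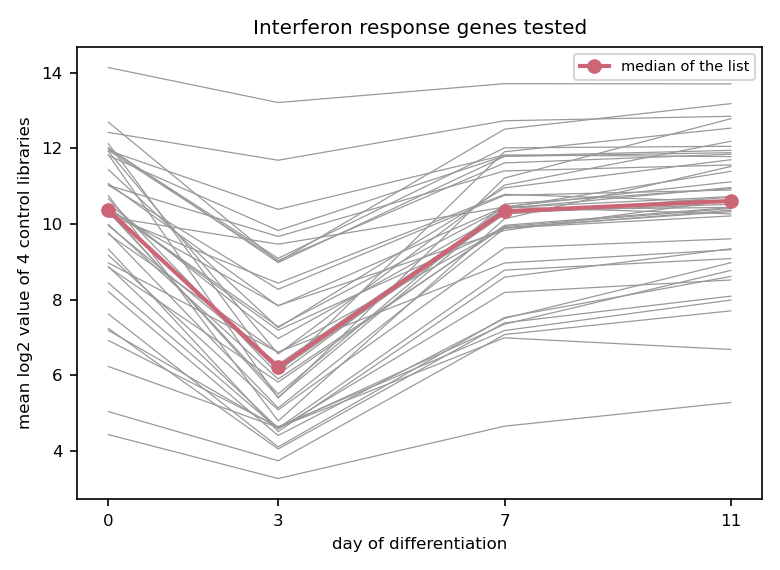
Mean log2 value (vertical axis) of each of the 44 interferon response genes tested (gray lines) in control cells on days 0, 3, 7 and 11, with the median of the list in red; each mean is over 4 libraries. Every gray line is lower at day 3 than at day 7.

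Most amino acid stress genes fell. Of 21 tested, 19 fell, 8 of them by at least 1, none rose and 2 (Ddit3 and Nupr1) were not called; the median was −0.90. With libraries rescaled to equal totals, Nupr1 was called higher (0.12, adjusted p = 0.0406). Slc7a11, the cystine importer whose promoter is shown above, had 2030.3, 2003, 1995 and 1879 normalized reads at day 3 and 373, 302, 370.0 and 431 at day 7. The days were well apart, with a change of −2.29 (SE 0.147, adjusted p = 2.9e-09). Asns, asparagine synthetase, went from 12325, 13038, 12399 and 11421 to 5453, 4759.6, 5573 and 5401, a change of −1.18. Atf4, the transcription factor of the response, fell by 1.12 and the leucine carrier Slc7a5 by 1.61. Ppp1r15a, which restarts translation, fell by 1.303. Day 7 means of Asns and Atf4 (5296 and 8515) stood beside day 0 means of 4963 and 9253. Chaperones and secretory genes of the endoplasmic reticulum were divided, with 9 of 23 higher and 11 lower. Hspa5, the main luminal chaperone, fell by 0.46 and Hyou1 by 1.04, while P4hb, a subunit of collagen prolyl hydroxylase, rose by 0.72.

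Most replication genes and many mitotic genes fell. Of 33 S-phase genes, 28 fell, 2 rose and 3 were not called, with a median of −0.59. The sliding clamp Pcna went from 3005, 2741, 2873 and 2873 to 1369.8, 1448, 1443 and 1453 normalized reads (−0.97). Cdc6, which loads the replicative helicase, fell by 1.36, Dtl by 1.14 and the helicase subunit Mcm5 by 1.09. Of 32 mitosis genes, 19 fell, 4 rose and 9 were not called, with a median of −0.23. Top2a, the topoisomerase that untangles chromosomes, fell the most, from 7983, 6865, 7296 and 7881 to 2075, 2067, 1840.2 and 2495, by 1.77. Mki67, a marker of cycling cells, fell by 0.46. Cenpa, Plk1 and Ccnb2 rose by 0.38, 0.32 and 0.29. The call of Plk1 was lost without day 3 replicate 2 (0.23, adjusted p = 0.0823) or 3 (0.27, adjusted p = 0.0574). That of Ccnb2, whose days overlapped, was lost without day 3 replicate 2 (0.18, adjusted p = 0.218) or 3 (0.27, adjusted p = 0.0841), or day 7 replicate 1 (0.27, adjusted p = 0.0829), 2 (0.30, adjusted p = 0.053) or 4 (0.20, adjusted p = 0.18). The Ccnb2 call was also lost with no filter (adjusted p = 0.0657) and with median centring (adjusted p = 0.0549). So it was without the trend and robust options (adjusted p = 0.0756) and on log2 of rebuilt reads plus 1 (adjusted p = 0.0578). Among regulators, Myc fell from 9255, 9702, 9749.9 and 9568 to 1895, 1921, 2299 and 2157, by 2.14. The inhibitors of cyclin-dependent kinases Cdkn2a, Cdkn2b and Cdkn1b rose by 1.09, 0.99 and 0.87, and Cdkn1a by 0.44. The list of regulators as a whole was divided: of 19 tested, 9 rose, 8 fell and 2 were not called, with a median of 0.07.

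More cholesterol synthesis and uptake genes fell than rose. Of 31 genes, 18 fell, 9 rose and 4 were not called, with a median of −0.22. Hsd17b7, a 3-ketosteroid reductase of the late pathway, fell from 2185, 2064, 2103 and 2103 to 365, 333, 327 and 401 normalized reads, by 2.42 (SE 0.063, adjusted p = 7.8e-27). Scarb1, the receptor for high-density lipoprotein, rose by 1.26, and the exporter Abcg1 by 0.93.

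Type I collagen genes rose and the main laminin and type IV collagen genes fell. Col1a1 and Col1a2, the chains of type I collagen, rose by 1.72 and 1.33. Col1a1 (chr11:94936224-94953042) had 23231, 24629, 24720.0 and 25688 normalized reads at day 3 and 78526, 84186, 88477 and 83711 at day 7, against a day 0 mean of 119510.0. Lox, the oxidase that cross-links collagen, went from 5457, 5858, 6111 and 6656 to 27934, 30437, 30928 and 27554, a change of 2.21 (SE 0.059, adjusted p = 5.4e-18). The small proteoglycans Ogn and Fmod, which bind collagen fibrils, rose by 3.03 and 2.48. The list as a whole was not uniform: of 34 fibrillar and associated collagen genes, 13 rose, 11 of them by at least 1, and 18 fell, with a median of −0.14. Tnc, Lum and Fbn1 fell by 1.31, 1.09 and 0.86. In the basement membrane list, 7 of 14 rose and 7 fell. The laminin chains Lamc1, Lamb1 and Lama4 fell by 1.07, 0.89 and 0.70, and the main type IV collagen chains Col4a1 and Col4a2 by 0.32 and 0.40. Lama2, Col4a5 and the collagen chaperone Sparc rose by 1.96, 1.87 and 1.48. Per kilobase of exon, Col4a1 was still above Col1a1 at day 7, with 19569.5 against 12757 normalized reads. Of 22 proteases and inhibitors, 15 rose and 4 fell. The gelatinase Mmp9 rose by 2.73 and the inhibitor Timp4 by 2.68, while Adamts1 fell by 1.02.

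**Figure D4:**
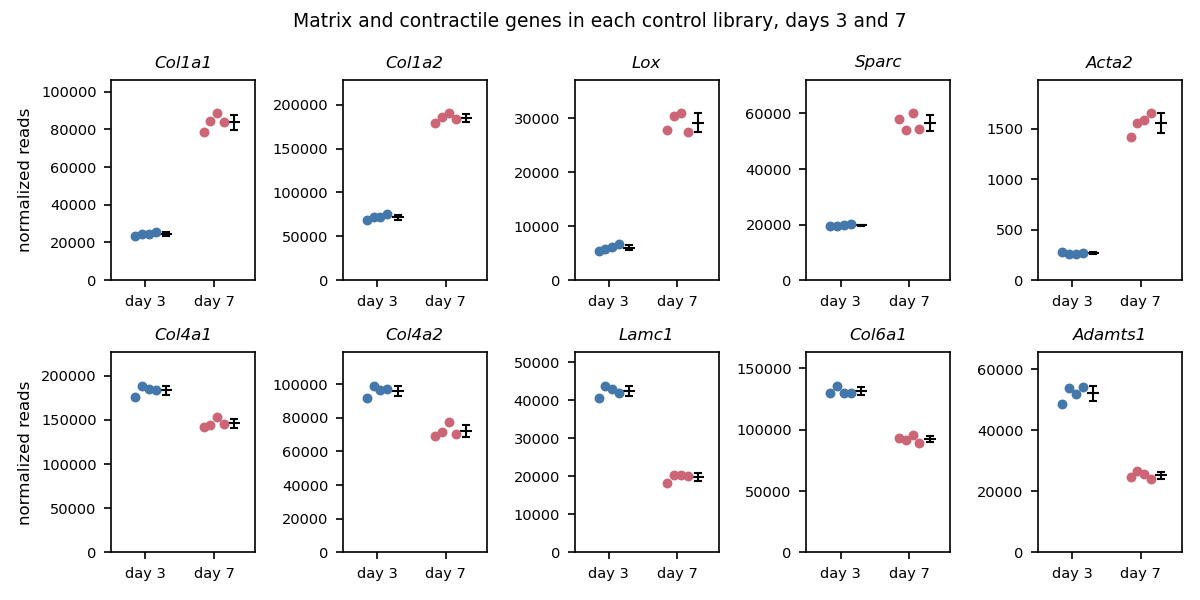
Normalized reads (vertical axis, linear from 0) of 10 matrix and contractile genes in each control library of day 3 (blue points) and day 7 (red points), with the mean and SD beside them in black. Col1a1, Col1a2, Lox, Sparc and Acta2 were higher in all 4 day 7 libraries, and Col4a1, Col4a2, Lamc1, Col6a1 and Adamts1 in all 4 day 3 libraries.

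Most contractile genes rose. Acta2, smooth muscle actin, had 283, 257, 259 and 273 normalized reads at day 3 and 1422, 1559, 1589.6 and 1655 at day 7, a change of 2.38 (SE 0.067, adjusted p = 1.8e-17), with 21099 at day 0. Myosin light chain Myl9 rose by 1.78 and Cnn2 by 1.24. Of 21 genes, 14 rose and 5 fell, with a median of 0.42. The falls were led by Ccn1, an early target of YAP (−2.003), and by Srf (−1.11), the serum response factor itself. Among markers of muscle cells, Des and Tnnt2 rose by 1.38 and 1.49, and the summed list ran from 116 to 156 normalized reads at day 3 and from 391 to 469 at day 7; Pax7 had no read at day 3 and at most 4 in a day 7 library, and the part of such cells in the contractile rise was not tested.

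Preadipocyte genes were divided. Of 24 anti-adipogenic and preadipocyte genes tested, 12 rose and 8 fell, with a median of 0.11. Dlk1, a membrane protein that holds back differentiation, rose by 1.58 (SE 0.047, adjusted p = 6.2e-22), from 26695, 28852, 28136 and 28545 to 80462, 87079, 94120.2 and 84908 normalized reads, with a day 0 mean of 95148. The Wnt modulator Sfrp2 rose by 2.94 and Klf2 by 2.22. The progenitor marker Pi16 fell by 1.85 and the Notch target Hes1 by 1.69. In the clock, 8 of 18 genes rose and 9 fell. The repressor Cry1 fell by 1.73 and Per2 by 1.12, while Bhlhe41 rose by 2.63; the hour of harvest was not given in the sources used here.

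Several enzymes of detoxification had their highest control mean at day 7. Aldh1a1, a retinaldehyde dehydrogenase (chr19:20492715-20643465), had 25.2, 38.1, 24.1 and 24.4 normalized reads at day 3 and 1569.6, 1567, 1589 and 1599 at day 7, a change of 5.09 (SE 0.149, adjusted p = 4.7e-22). Its means were 10.6 at day 0 and 116 at day 11. Aldh1a7, a close paralog with which reads may be shared, followed the same course, with means of 7.06, 309, 4522 and 248 on days 0, 3, 7 and 11. Sult1a1 had means of 9.74, 111, 1461 and 66.7 on the same days, and Hif3a of 0, 40.9, 423 and 41.3. Of 27 redox and detoxification genes tested, 15 rose, 8 of them by at least 1, and 8 fell. Selenbp1, a selenium-binding protein, had at most 3 reads in a day 3 library and 101.4, 92.3, 60.2 and 79.7 normalized reads at day 7. The falls were led by Sod2, the mitochondrial superoxide dismutase (−1.50), Txn1 (−0.78) and Txnrd1 (−0.63).

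Further genes with the largest falls were of diverse kinds. The keratin gene Krt15 went from 1702, 1564, 1692 and 1519 to 75.8, 70.0, 62.1 and 72.7 normalized reads, a change of −4.15. Retnla, a resistin-like secreted protein, had no read in the control libraries of days 0 and 11 and went from 611, 631, 546 and 517 to 18.7, 39.6, 6.80 and 28.9. The imprinted noncoding RNA H19 went from 219.9, 236, 254 and 257 to 2.95, 0, 6.80 and 2.31; whether counting used strand was not given in the sources used here. Cd33 fell by 3.45, Pip by 3.39, the protease inhibitor gene Spink5 by 3.38, Spry1, which restrains growth factor signalling, by 3.36, and the kinesin gene Kif26b by 3.28. By ratio of mean normalized reads, day 7 to day 3, H19 (0.0125) and Pip (0.0215) fell further than Nr4a1 (0.0226). Zbtb9, the gene targeted elsewhere in the study, was low in all control libraries, at 12.6, 6.35, 12.6 and 9.57 and 14.8, 17.2, 22.3 and 12.7 normalized reads on days 3 and 7, and its change of 0.22 (adjusted p = 0.0833) was not called. It was called with equal totals (0.28, adjusted p = 0.0321) and without the trend and robust options (adjusted p = 0.0131).

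**Figure D5:**
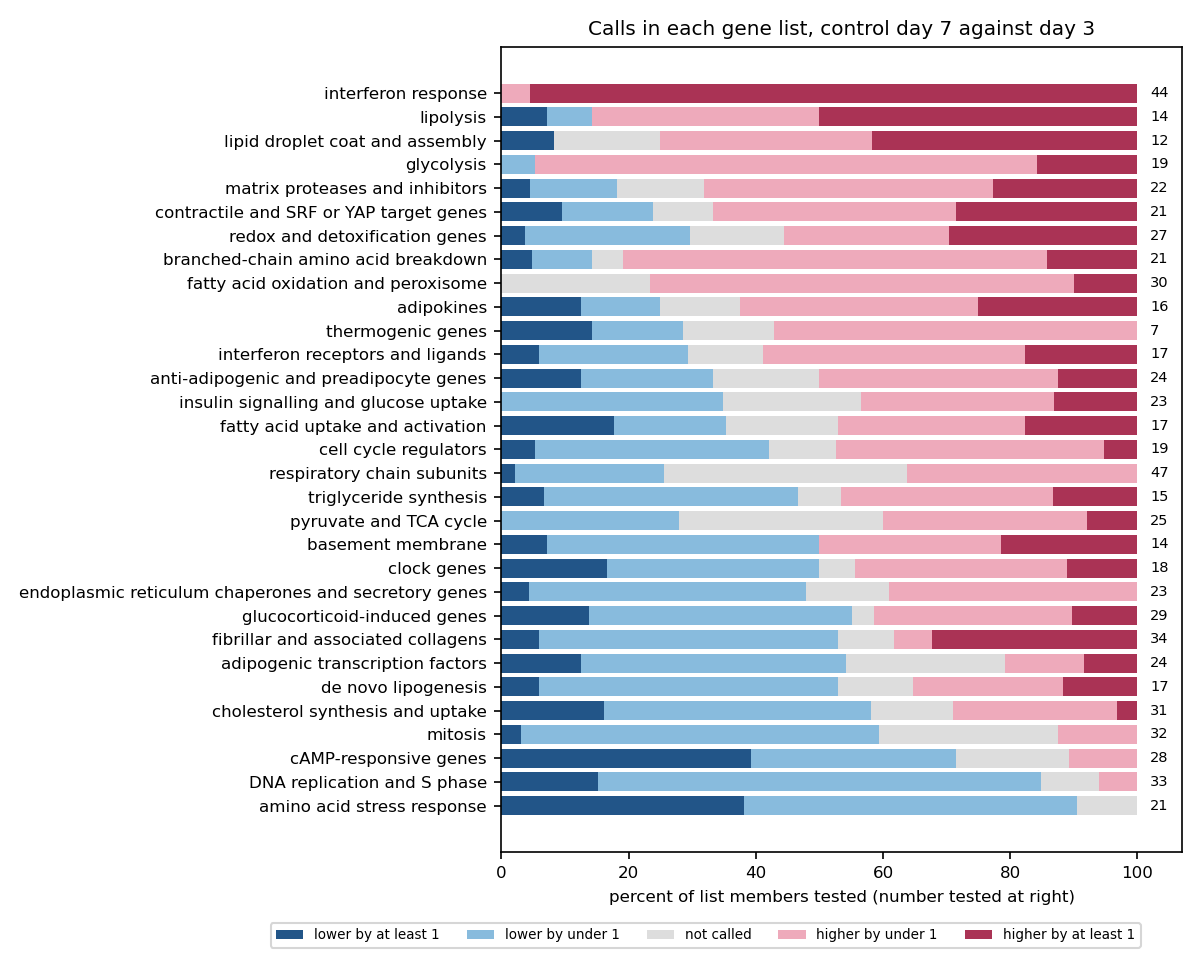
Share of tested members (horizontal axis, percent) of each gene list called higher or lower at day 7, in dark colours for a log2 change of at least 1, in light colours for smaller ones and in gray for those not called; numbers at the right are members tested. Interferon response genes are almost wholly in the darkest red, and amino acid stress, replication and cAMP-responsive genes have the widest blue shares.

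Endothelial and epithelial markers had few reads. Only 2 endothelial markers and 1 epithelial marker were tested, and all rose, with medians of 0.49 and 0.58. The endothelial list summed to 16.9 to 40.8 normalized reads per library at day 3 and 38.4 to 62.4 at day 7, with Cdh5 at most 7 reads in any of these libraries. The epithelial list summed to 8.504 to 13.6 and 30.02 to 93.5, and Epcam had at most 2 reads. The osteoblast and chondrocyte list summed to 2857 to 3040.0 and 2828 to 3175. Most of that sum was Sox9, with means of 2426 and 2459.5, and Runx2, with 414 and 461; neither was called. Runx2 was called higher without day 3 replicate 4 (0.20, adjusted p = 0.00891) or day 7 replicate 1 (0.20, adjusted p = 0.0121), with equal totals (0.20, adjusted p = 0.00829) and with a replicate block (adjusted p = 0.0357). Bglap had no read on either day. The adipocyte list summed to 12331 to 14216 at day 3 and 29471 to 32282 at day 7.

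The same step in Zbtb9 knockdown cells, 2 libraries from each of 2 hairpins per day, differed from the control for 3286 of 13387 genes tested (24.5%) by the interaction term of a limma fit. Both hairpins were pooled as a single knockdown group, and whether they differed was not tested. The change was larger (more positive) in knockdown cells for 1824 and smaller for 1462. The 44 interferon response genes all had a smaller rise in knockdown cells, with a median difference of −1.59. Ifit1 went from a mean of 197 to 345 normalized reads in knockdown cells, against 68.6 to 2168 in control cells, a difference of −3.66 (SE 0.44, adjusted p = 5.3e-05). For Ifit3 the difference was −3.55 and for Ifit3b −3.23. Among adipocyte markers, 7 of 9 had a larger rise in knockdown cells, Slc2a4 by 2.05 (SE 0.17, adjusted p = 1.8e-08), while for Adipoq (0.57, adjusted p = 0.0582) and Cidec (0.50, adjusted p = 0.19) the difference was not called. Of 47 respiratory subunits 43 had a larger change in knockdown cells, with a median difference of 0.39. Among genes past the filters used for naming, the largest positive differences were in Krt8, B3gnt6 and Ghrh. Krt8 and B3gnt6 did not pass the filter in the control fit. Krt8, a keratin of simple epithelia, had no read in the control libraries of day 3 and 17.7, 1.01, 5.83 and 3.46 normalized reads at day 7, against 46.2 to 621 in the knockdown libraries of day 7. B3gnt6, a glycosyltransferase, ran from 54.5 to 702 in the latter and from 2.31 to 6.09 in control cells. Ghrh, which encodes growth hormone-releasing hormone, had at most 2 reads in a day 3 control library and 84.6, 66.9, 94.2 and 65.8 normalized reads at day 7, against 776 to 1018 in knockdown cells. With voom on the rebuilt reads the Krt8 and B3gnt6 differences were 4.05 and 4.44 against 3.37 and 3.30, but were not called (adjusted p = 0.564 and 0.397).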

How the data were processed

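RNA from 3T3-L1 cells was sequenced after TruSeq preparation, per the labels' protocols. TopHat2 2.1.0, Bowtie2 2.2.6, SAMtools 1.3.1 and HTSeq 0.6.1 are named in the submitters' processing notes. The authors deposited 1 table of log2 values per gene and library, already normalized across libraries; the transform, genome build and strandedness are not given in the sources used here. Whole reads were rebuilt by inverting the transform: 99.3% of values fell within 0.1 of a whole number, where chance gives 20%. They serve for levels, ratios of reads, fold bounds and the alternative fits named for them, and not for the main calls.

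Changes were tested on the deposited log2 values with limma 3.58.1 in R 4.3.3 (trend and robust options, 16 control libraries, Benjamini-Hochberg adjustment), for genes with a linear value of at least 10 in at least 4 libraries. The knockdown difference is an interaction term over 16 libraries of days 3 and 7. The rebuilding of reads and the control fit were also run on simulated libraries. In the simulated libraries of the control fit few genes changed, all by at least 1 on the log2 scale. Smaller changes, many changed genes at once and the knockdown difference were not tested there. Symbols are the table's, and positions come from GENCODE M21 by gene identifier. Named genes are the 12 largest rises and falls among called genes whose days did not overlap and whose higher day had a mean linear value of at least 50, leaving out predicted and unnamed genes, the 3 largest called in each direction per list, sentinel genes of each list, Zbtb9, and the 3 largest knockdown differences in each direction. For knockdown differences the same filters had to be met in either the control or the knockdown libraries. A few genes that this rule names are not reported here. Members and gene lists were chosen with earlier results of these data known. Alternatives were another set of libraries, filters, pseudocounts, scalings, a replicate block, voom on rebuilt reads, and leaving out each library.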

Additional observations from a re-analysis of the deposited data

Results flagged for a closer look

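In 20 of 360 groups of 4 control libraries (1 gene on 1 day, over the genes named above), 1 library lay far from the other 3 by Dixon's criterion; chance gives about 1 in 20. Each value is a log2 level, set against the range of the other 3 libraries of that day. In day 3 replicate 1, Ccn1 was at 12.78 against 12.94 to 12.97. In day 3 replicate 2, Abcg1 was at 8.43 against 8.57 to 8.59, Aldh1a1 was at 5.46 against 5.04 to 5.08, Col6a1 was at 17.03 against 16.96 to 16.96 and Vegfa was at 13.90 against 13.77 to 13.79. In day 3 replicate 3, Irf7 was at 5.13 against 5.58 to 5.67 and Klf15 was at 5.50 against 5.36 to 5.37. In day 3 replicate 4, Des was at 7.12 against 6.84 to 6.88, Ghrh was at 3.77 against 3.61 to 3.61 and Hyou1 was at 12.98 against 13.06 to 13.07. In day 7 replicate 1, Lamc1 was at 14.17 against 14.30 to 14.32 and Pcna was at 10.43 against 10.51 to 10.52. In day 7 replicate 2, Fitm2 was at 11.27 against 11.34 to 11.34, Ifitm3 was at 13.43 against 13.76 to 13.83, Pnpla2 was at 12.90 against 12.96 to 12.98, Rtp4 was at 9.46 against 9.96 to 10.06 and Slc16a3 was at 7.35 against 6.98 to 7.04. In day 7 replicate 3, Ppp1r15a was at 10.90 against 10.67 to 10.68. In day 7 replicate 4, Tsc22d3 was at 13.23 against 13.36 to 13.37 and Mrc1 was at 3.96 against 4.51 to 4.61.

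The change from day 3 to day 7 differed between knockdown and control cells by the interaction term of the limma fit for 6 genes named for the size of that difference. It was larger in knockdown cells by 3.37 for Krt8, by 3.30 for B3gnt6 and by 3.16 for Ghrh on the log2 scale. With voom on the rebuilt reads, the differences of Krt8 and B3gnt6 were 4.05 and 4.44 but were not called (adjusted p = 0.564 and 0.397). The difference was −3.66 for Ifit1, −3.55 for Ifit3 and −3.23 for Ifit3b, a smaller rise in knockdown cells.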

How the results depend on the processing

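Under the other fits, scalings and filters, the number of genes called ran from 9118 with a stricter filter to 10587 with no filter, against 9964. The number called with a change of at least 1 was 1320, and rose to 2191 on log2 of the rebuilt normalized reads plus 1 and to 2225 with voom on the rebuilt reads, scales on which low genes are not drawn towards their mean. Without 1 library at a time, called genes ran from 9642 to 9723, those higher from 4900 to 4938, those lower from 4733 to 4793, those changed by at least 1 from 1308 to 1349 and those differing in knockdown cells from 2814 to 3455. Rescaling to equal totals moved the median change from 0.0073 to 0.062 and rises from 50.7% of all calls to 56.5%. List medians moved by more than the spread between libraries for 9 of 37 lists with that rescaling, for 10 with voom on the rebuilt reads and for 0 with the block. With voom the medians of the interferon response, lipolysis and lipid droplet lists were 4.21, 2.02 and 1.07. Of 3595 pairs of a named gene and an alternative, 3557 kept direction and side of the threshold, 27 (9 genes) lost the call, 8 (Nr4a2, Nupr1, Runx2 and Zbtb9) gained it and 3 changed sign. In 1 fit of all 32 libraries the calls of Ccnb2, Cebpa, Cenpa, Lipe, Mki67, Plk1, Pnpla2 and Scd1 were lost, with adjusted p from 0.0725 to 0.189. Those that changed sign were genes not called: Fkbp5 at 0.0189 with equal totals, Ddit3 at −0.0095 without day 7 replicate 3, with values up to 0.105 (without day 7 replicate 2) when other libraries were left out, and Sox9 at −0.00036 without day 7 replicate 3, with values up to 0.0398 (without day 7 replicate 1); the cause was not tested. The endothelial and epithelial marker lists had no gene left under the stricter filter. Libraries with the same replicate number did not deviate together (correlations 0.0095, 0.0457, 0.0333 and 0.0084), and a replicate block gave 9947 calls. Depth limits genes with few reads, whose ratios rest on small counts.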
